A study of Mus musculus with 8 samples.

Results

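The cell cycle and DNA replication genes described here are 40 genes taken by symbol from the deposited table of 77981 genes. They encode G1 cyclins and kinases, inhibitors of these kinases, the retinoblastoma pocket proteins with E2F factors, the DNA replication machinery, and proteins of G2 and mitosis. Each of the 40 symbols matched 1 gene identifier. RNA came from mouse kidney and was labelled IMCD, for inner medullary collecting duct, the last tubule segment that adjusts how concentrated the urine becomes. The 8 libraries comprise 4 of genotype AVP-flox;Cre and 4 of genotype AVP-flox, all labelled tamoxifen, a drug that activates some inducible Cre recombinases. Both genotypes carry loxP sites around the vasopressin gene Avp, one in its first intron and another downstream of its 3' end, and AVP-flox;Cre adds Cre. The comparison sets the inducible knockout against its floxed control. The labels give no Cre driver, strain, age or sex, and there is no group with Cre but without floxed Avp. Nor do they say whether replicates are separate animals, so p-values measure the spread between these samples, which may be technical.

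In the cell cycle, D-type cyclins with Cdk4 or Cdk6, and then E-type cyclins with Cdk2, phosphorylate the pocket proteins Rb1, Rbl1 and Rbl2. Phosphorylated pocket proteins release E2F factors, which switch on genes for DNA replication, and cyclins A and B with Cdk1 later drive mitosis. In resting cells Rbl2 with E2f4 and partner proteins, the DREAM complex, keeps many of these genes low, and the adult collecting duct is an epithelium that renews slowly.

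Values are TPM, a measure of transcript abundance per unit of length on a fixed library total, which keeps no depth, so counting intervals cannot be given. Genes above 0 TPM numbered 33576 in AVP-flox;Cre 2, where all others had 50951 to 58232, and genes of 1 TPM or more numbered 23412 in AVP-flox;Cre 4, where all others had 16608 to 20765. Sex-linked genes showed a male pattern in AVP-flox;Cre 1 and 2 and in AVP-flox 1 and a female pattern elsewhere. Avp, which the hypothalamus makes, was listed at 0.27 TPM or less in every library (two-sided p = 0.686 by exact permutation test), and these kidney values say nothing of the deletion. The summed TPM of 14 collecting duct markers was 13690 to 15903 in AVP-flox;Cre, against 21622 to 25408 in AVP-flox. Aqp2, the water channel, carried that difference, and without it the sum of the other 13 was 8246 to 9299.9 in AVP-flox;Cre, against 6451 to 7723 in AVP-flox. Of the 14, 4 rose (Cdh16, Epcam, Slc14a2 and Krt18), 4 fell (Aqp2, Aqp3, Aqp4 and Elf5) and 6 did not pass the test, with a median log2 fold change of 0.19. The sum of 10 fibroblast and pericyte markers was 293 to 364 in AVP-flox;Cre, against 143 to 196 in AVP-flox. That of 10 endothelial markers was 2337 to 2434 in AVP-flox;Cre, against 2658 to 2751 in AVP-flox. Emcn carried most of this difference, at 362 ± 27.1 TPM in AVP-flox;Cre and 705 ± 44.4 TPM in AVP-flox (SD, n = 4 each). Of the 10, 5 rose (Kdr, Flt1, Tek, Eng and Cldn5) and 2 fell (Emcn and Pecam1).

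Of the 40 genes, 33 reached an average of 1 TPM across all libraries and were tested, and 7 did not: E2f1, Mki67, Ccnb1, Ccnb2, Bub1, Plk1 and Ube2c. With limma on log2(TPM + 1) and an adjusted p threshold of 0.05 over all 19043 genes tested, 3 of the 33 rose in AVP-flox;Cre (Ccnd2, Cdk6 and Cdk2) and 6 fell (Rb1, Rbl2, Mcm4, Rrm1, Rrm2 and Cdk1). Over all genes tested, 27.3% passed the same threshold, 13.1% higher and 14.2% lower, and the 9 of 33 make the same share of 27.3%. The median log2 fold change (AVP-flox;Cre minus AVP-flox) of the 33 was -0.11, beside -0.01 over all genes tested. The 2 groups did not overlap in 12 of the 33 genes, 4 higher and 8 lower in AVP-flox;Cre, while 29.5% of all genes tested had groups that did not overlap. By role, 1 of 5 G1 cyclins and 2 of 3 G1 kinases rose, and neither of 2 kinase inhibitors passed. Of those tested, 2 of 5 pocket protein and E2F genes, 3 of 10 replication genes and 1 of 8 G2 and mitosis genes fell. The share called equals that of all genes tested, the counts by role are small, and whether the roles differ was not tested. In bulk RNA, fewer cells of a type and less RNA per cell cannot be told apart.

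**Figure D1:**
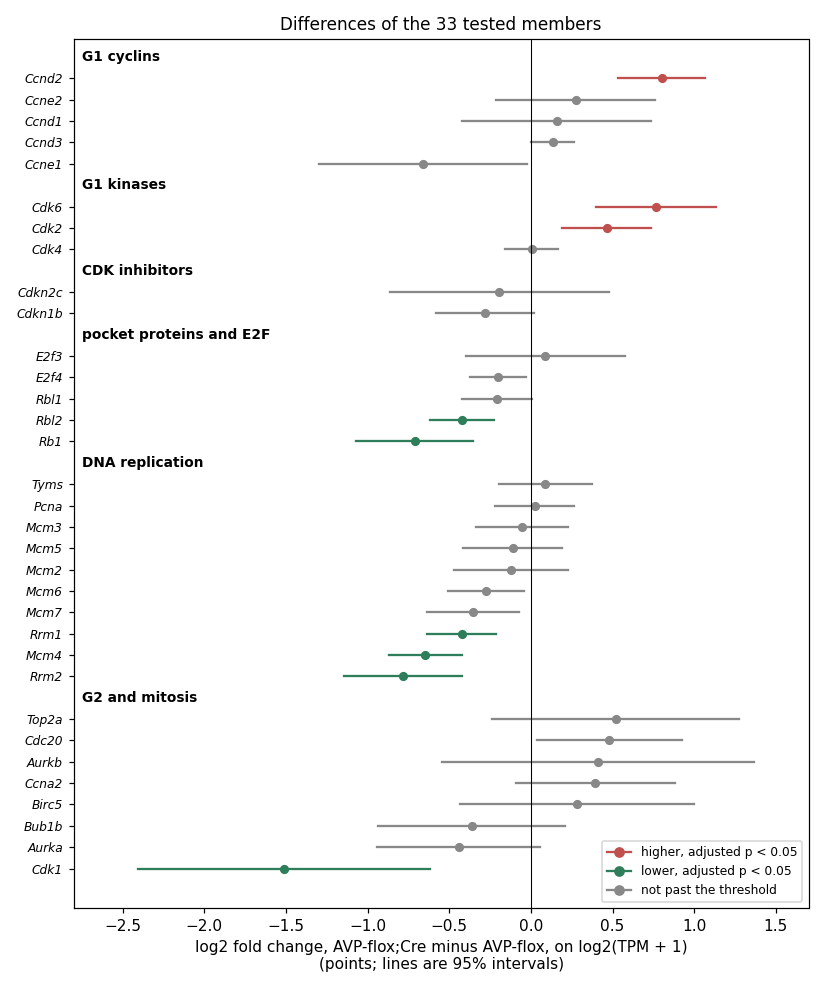
Log2 fold change of each of the 33 tested genes (x axis, AVP-flox;Cre minus AVP-flox, on log2(TPM + 1)), grouped by role down the page, with 95% intervals from limma as lines. The 3 genes past the threshold on the higher side are Ccnd2, Cdk6 and Cdk2, and the widest interval among the 6 on the lower side is that of Cdk1.

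Among the G1 cyclins, Ccnd2 was the 1 gene past the threshold. Ccnd2 (ENSMUSG00000000184), a D-type cyclin that activates Cdk4 and Cdk6, had 25.6, 29.2, 28.4 and 28.2 TPM in AVP-flox;Cre and 12.5, 18.5, 15.1 and 16.55 TPM in AVP-flox. The groups did not overlap, and the highest AVP-flox library was well under the others' lowest. The means were 27.8 ± 1.56 TPM in AVP-flox;Cre and 15.7 ± 2.53 TPM in AVP-flox (SD, n = 4 each), a 1.77-fold difference (log2 fold change 0.80, SE 0.12, limma adjusted p = 0.00109). The exact permutation test, two-sided, gave p = 0.0286, the smallest that 4 against 4 allows, and it gave the same p for each of the other 8 genes past the threshold. The gene stayed past the threshold in all 22 alternative settings run.

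Ccnd3 was the most abundant D-type cyclin, at 224, 220.1, 203 and 227 TPM in AVP-flox;Cre and 201, 203, 196 and 196 TPM in AVP-flox. The groups met at 203 TPM, where replicate 3 of AVP-flox;Cre lay just under AVP-flox 2. The difference missed the threshold (log2 fold change 0.13, 95% interval 0.00 to 0.26, limma adjusted p = 0.123). With each library corrected for its trend with GC content it passed, at 0.23 (adjusted p = 0.0301), and over 22 alternatives the adjusted p ran between 0.0301 and 0.387. The start of the Ccnd3 transcript holds 72.0% GC.

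Ccnd1, the D-type cyclin most often induced by growth factors, had 5.82, 6.74, 6.25 and 7.56 TPM in AVP-flox;Cre and 5.44, 2.91, 8.51 and 7.85 TPM in AVP-flox. Here the AVP-flox libraries spread on both sides of the others, and the interval ran between -0.42 and 0.73 on the log2 scale (log2 fold change 0.16, limma adjusted p = 0.698). Of the 50-base windows of its annotated transcripts, 27.2% also occur in another gene, so its reads may be shared. As parts of the D-cyclin total, Ccnd2 made 10 to 12% in AVP-flox;Cre and 5.72 to 8.25% in AVP-flox, while Ccnd3 made 85.4 to 87.7% in AVP-flox;Cre, against 88.9 to 91.8% in AVP-flox. These shares did not overlap between the groups. The E-type cyclins, partners of Cdk2 at the entry into S phase, were low, between 0.98 and 5.21 TPM for Ccne1 and between 2.35 and 4.68 TPM for Ccne2. Neither was past the threshold, with log2 fold changes of -0.66 for Ccne1 (adjusted p = 0.115) and 0.27 for Ccne2 (adjusted p = 0.396).

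Of the 3 G1 kinases, Cdk6 and Cdk2 rose and Cdk4 did not pass the test. Cdk6 (ENSMUSG00000040274), which shares its D-cyclin partners with Cdk4, had 15.55, 14.8, 13.05 and 14.8 TPM in AVP-flox;Cre and 6.55, 11.7, 8.08 and 6.93 TPM in AVP-flox. The groups did not overlap, and AVP-flox 2 was the highest of its group. The means of 14.5 ± 1.06 TPM in AVP-flox;Cre and 8.32 ± 2.36 TPM in AVP-flox (SD, n = 4 each) differed 1.75-fold (log2 fold change 0.77, SE 0.16, limma adjusted p = 0.00757). Without both AVP-flox;Cre 2 and 4 its adjusted p was 0.0625, the 1 alternative of 22 that ended the call.

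Cdk2 (ENSMUSG00000025358), the partner of E-type and A-type cyclins, had 22.6, 23.6, 20.4 and 22.4 TPM in AVP-flox;Cre and 18.1, 12.6, 15.4 and 17.9 TPM in AVP-flox. The groups did not overlap, and the means of 22.2 ± 1.36 TPM in AVP-flox;Cre and 16 ± 2.6 TPM in AVP-flox (SD, n = 4 each) differed 1.39-fold (log2 fold change 0.46, SE 0.12, limma adjusted p = 0.0194). The call was lost with no filter on low values (adjusted p = 0.0694), without AVP-flox 3 (0.0513) and without AVP-flox;Cre 2 and 4 (0.125). Its lowest adjusted p over the 22 alternatives was 0.0141.

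Cdk4 was the most abundant of all 40 genes. It had 221, 249, 213 and 216 TPM in AVP-flox;Cre and 214, 243, 225 and 213 TPM in AVP-flox, so each group reached over nearly the same range. Its log2 fold change was 0.00 (95% interval -0.16 to 0.17, limma adjusted p = 0.970). By mean TPM it ranked 767 of 19043 genes in AVP-flox;Cre, against 756 in AVP-flox, and 29.5% of its windows also occur in other genes. Cdk6 made 5.61 to 6.57% of the summed TPM of both kinases in AVP-flox;Cre and 2.96 to 4.6% in AVP-flox.

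Neither of the 2 kinase inhibitors among the 40 passed the test. Cdkn1b, which encodes the inhibitor Kip1 of cyclin E and Cdk2, had 4.76, 5.28, 5.33 and 6.58 TPM in AVP-flox;Cre and 6.62, 6.60, 6.47 and 7.74 TPM in AVP-flox. AVP-flox;Cre 4 was level with 3 AVP-flox libraries, and the other 3 of its group were under all of them (log2 fold change -0.28, 95% interval -0.58 to 0.02, limma adjusted p = 0.151). Cdkn2c, an inhibitor of Cdk4 and Cdk6, lay between 1.08 and 4.12 TPM over the 8 libraries (log2 fold change -0.19, adjusted p = 0.684).

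**Figure D2:**
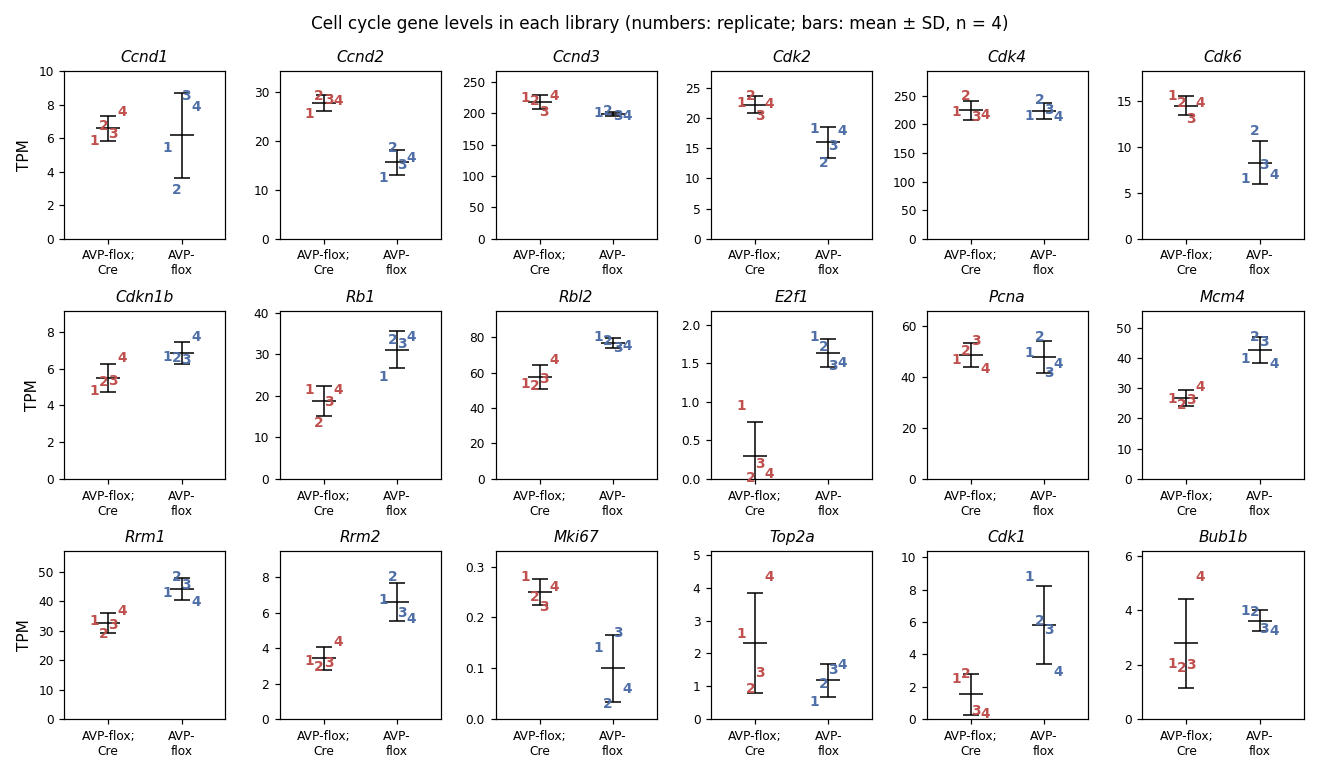
TPM (y axis, starting at 0) in each AVP-flox;Cre and AVP-flox library for the 9 genes past the threshold and 9 others, with digits for replicate numbers and bars for the mean ± SD of 4 libraries. AVP-flox;Cre libraries lie above those of AVP-flox for Ccnd2, Cdk6 and Cdk2, below them for Rb1, Rbl2, Mcm4, Rrm1, Rrm2 and Cdk1, and the groups overlap for Cdk4, Pcna and Top2a.

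Of the 3 pocket proteins, which hold E2F targets in check, Rb1 and Rbl2 fell and Rbl1 did not pass the test. Rb1 (ENSMUSG00000022105), the retinoblastoma protein, had 21.4, 13.6, 18.55 and 21.5 TPM in AVP-flox;Cre and 24.5, 33.4, 32.5 and 34.3 TPM in AVP-flox. Without overlap between the groups, AVP-flox 1 was the lowest of its own. At 18.7 ± 3.70 TPM in AVP-flox;Cre and 31.1 ± 4.52 TPM in AVP-flox (SD, n = 4 each), Rb1 was 1.66-fold lower (log2 fold change -0.71, SE 0.16, limma adjusted p = 0.00905). The start of its transcript holds 78.0% GC, and with the GC correction the log2 fold change was -0.53 (adjusted p = 0.0163). Over the 22 alternatives, all past the threshold, the adjusted p ran between 0.00383 and 0.0359.

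Rbl2 (ENSMUSG00000031666), the pocket protein of the DREAM complex, had 53.3, 52.6, 56.2 and 67.1 TPM in AVP-flox;Cre and 80.4, 77.8, 73.8 and 75.2 TPM in AVP-flox. No overlap was seen, and the nearest libraries of the groups were at 67.1 and 73.8 TPM. The means of 57.3 ± 6.74 TPM in AVP-flox;Cre and 76.8 ± 2.90 TPM in AVP-flox (SD, n = 4 each) made it 1.34-fold lower (log2 fold change -0.42, SE 0.09, limma adjusted p = 0.00606), and all 22 alternatives kept it past the threshold. Rbl1, the other partner of repressor E2F factors, had 11.0 to 12.55 TPM in AVP-flox;Cre, against 13.1 to 15.2 TPM in AVP-flox, without overlap, but missed the threshold (log2 fold change -0.21, limma adjusted p = 0.135). Summed, the 3 pocket proteins had 85.7, 78.1, 87.0 and 101 TPM in AVP-flox;Cre and 119, 125, 119 and 125 TPM in AVP-flox.

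Within the summed TPM of E2f1, E2f3 and E2f4 alone, E2f4, the main repressor form, made at least 95.2% in every library. Other E2F genes, which belong to a related list, were left out of that sum. Among them E2f5 averaged 44.9 TPM in AVP-flox;Cre and 31.7 TPM in AVP-flox. E2f6 averaged 22.3 TPM in AVP-flox;Cre and 28.2 TPM in AVP-flox, while E2f2, E2f7 and E2f8 averaged 2.445 TPM or less in each group. E2f4 had 56.3, 50.1, 53.05 and 60.01 TPM in AVP-flox;Cre and 62.0, 67.0, 63.3 and 60.2 TPM in AVP-flox. The groups were separated only by the gap between AVP-flox;Cre 4 and AVP-flox 4, and the difference missed the threshold (log2 fold change -0.20, limma adjusted p = 0.0785). E2f1, an activator form and itself an E2F target, was too low to be tested and was singled out after its values were seen. It had 0.95, 0.01, 0.19 and 0.06 TPM in AVP-flox;Cre and 1.85, 1.72, 1.47 and 1.51 TPM in AVP-flox. The groups did not overlap, although AVP-flox;Cre 1 was well above the other 3 of its group. In the fit with no filter its log2 fold change was -1.07 (limma adjusted p = 0.0274). Other alternatives tested it only where its AVP-flox values lifted its mean past the filter, and their p-values are not given. The start of its transcript holds 78.7% GC, and E2f1 was in no GC-corrected fit. E2f3, another activator, lay between 0.77 and 1.5 TPM (log2 fold change 0.09, adjusted p = 0.803).

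The promoters shown are those of the genes past the threshold that held an E2F match, with that of Pcna, which held none, and they were picked after the matches were seen. They show letters that E2F factors, the DREAM complex or the factor NF-Y are known to read. The sequences are from RefSeq on GRCm38.p6, 250 bases up to the annotated start, 5′ to 3′ in the sense of the gene, and capitals mark matches on either strand. E2F was searched as the letters TTCCCGC, as TTCGCGC, as TTGCCGC and as TTGGCGC, the cell cycle homology element (CHR) as TTTGAA, and the NF-Y box as CCAAT. Of the 40 genes, 32 matched a total of 36 promoters. Cdk1 lies at chr10:69352913-69353162 on the minus strand, Rrm1 at chr7:102441445-102441694 on the plus strand, Rrm2 at chr12:24708004-24708253 on the plus strand, Cdk2 at chr10:128705052-128705301 on the minus strand and Pcna at chr2:132253181-132253430 on the minus strand.
Cdk1: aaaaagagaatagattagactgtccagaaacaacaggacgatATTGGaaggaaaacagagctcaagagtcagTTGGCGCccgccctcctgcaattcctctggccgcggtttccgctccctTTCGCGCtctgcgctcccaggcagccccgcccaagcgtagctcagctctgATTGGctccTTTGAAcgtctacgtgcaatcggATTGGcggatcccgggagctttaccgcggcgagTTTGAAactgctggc
Rrm1: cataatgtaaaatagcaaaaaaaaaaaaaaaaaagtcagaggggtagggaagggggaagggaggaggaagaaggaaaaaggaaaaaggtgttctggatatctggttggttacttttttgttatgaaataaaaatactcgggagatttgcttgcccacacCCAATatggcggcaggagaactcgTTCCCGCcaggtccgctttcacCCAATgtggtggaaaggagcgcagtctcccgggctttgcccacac
Rrm2: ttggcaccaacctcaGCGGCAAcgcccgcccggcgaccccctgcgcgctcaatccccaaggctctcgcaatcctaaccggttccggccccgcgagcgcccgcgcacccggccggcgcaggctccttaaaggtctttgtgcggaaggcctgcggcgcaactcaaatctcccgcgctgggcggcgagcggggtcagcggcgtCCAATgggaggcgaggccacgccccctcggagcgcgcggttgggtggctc
Cdk2: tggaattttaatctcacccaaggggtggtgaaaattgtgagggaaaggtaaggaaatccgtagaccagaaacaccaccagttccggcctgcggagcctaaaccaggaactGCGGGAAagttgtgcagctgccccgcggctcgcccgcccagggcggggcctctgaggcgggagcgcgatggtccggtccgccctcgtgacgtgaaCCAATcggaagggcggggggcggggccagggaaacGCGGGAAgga
Pcna: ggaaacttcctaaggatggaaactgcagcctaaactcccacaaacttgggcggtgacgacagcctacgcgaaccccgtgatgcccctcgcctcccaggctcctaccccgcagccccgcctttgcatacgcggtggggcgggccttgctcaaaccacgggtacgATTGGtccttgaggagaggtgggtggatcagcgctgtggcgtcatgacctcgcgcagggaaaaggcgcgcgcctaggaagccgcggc
The Cdk1 promoter holds 2 E2F, 2 CHR and 3 CCAAT matches, with a CHR match 15 bases before the start. Rrm1 has an E2F match 67 bases and Rrm2 one 235 bases before the start, Cdk2 has 2 E2F matches, and Pcna has 1 CCAAT match only. Of the other genes past the threshold, Cdk6 held no match of any of the 3 motifs, Rbl2 held 1 CHR match only, and Mcm4, Ccnd2 and Rb1 were not searched. Among genes not past the threshold, Mcm6 held 4 E2F matches and Mcm5 held 3. The promoter of E2f1, which was not tested, held no match of any of the 3 motifs. An E2F match stood in 36.1% of the members' promoters and in 7.9% of all 32851 promoters, a CHR match in 25% and 16%, and a CCAAT match in 66.7% and 33.8%. By role, 6 of 10 promoters of replication genes held an E2F match and 6 of 12 of the G2 and mitosis genes a CHR match. An E2F match stood in 3 of 4 promoters of genes that fell, in 1 of 2 of genes that rose and in 7 of 23 of those not past the threshold. A match describes letters and is not a measured site, and 1 promoter of a member, that of Ccnb1, has an E2F match that shares bases with another motif.

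Of the 10 DNA replication genes, 3 fell, 0 rose and 7 did not pass the test, with the 3 spread over the helicase and the supply of deoxynucleotides. Mcm4 (ENSMUSG00000022673), a subunit of the 6-part MCM helicase, had 26.4, 24.3, 26.0 and 30.5 TPM in AVP-flox;Cre and 39.8, 47.1, 45.2 and 38.0 TPM in AVP-flox. A wide gap separated the groups. The means of 26.8 ± 2.62 TPM in AVP-flox;Cre and 42.5 ± 4.31 TPM in AVP-flox (SD, n = 4 each) made it 1.59-fold lower (log2 fold change -0.65, SE 0.10, limma adjusted p = 0.0014), past the threshold in all 22 alternatives.

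The other 5 MCM genes did not pass. Mcm7 came nearest, at 34.5 to 40.15 TPM in AVP-flox;Cre, against 39.8 to 60.3 TPM in AVP-flox (log2 fold change -0.35, limma adjusted p = 0.0646), and it passed in 6 of 22 alternatives. Of its windows, 34.2% are shared with other genes. Mcm6 stood at 22.1 to 28.2 TPM in AVP-flox;Cre, against 26.6 to 33.4 TPM in AVP-flox (log2 fold change -0.27, adjusted p = 0.0802) and passed in 2 of 22. Mcm2, Mcm3 and Mcm5 had log2 fold changes of -0.12, -0.05 and -0.11, with 95% intervals that reached no lower than -0.47. Summed over the 6 subunits, the level was 127, 137, 131 and 142 TPM in AVP-flox;Cre and 149.7, 200.2, 174 and 158 TPM in AVP-flox. Mcm4 made 17.8 to 21.5% of that sum in AVP-flox;Cre and 23.5 to 26.6% in AVP-flox, without overlap.

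Of the genes of ribonucleotide reductase, which makes deoxynucleotides, Rrm1 and Rrm2 fell. Rrm2b, the alternative small subunit and not among the 40 genes, did not pass the test, at 18.6 ± 3.62 TPM in AVP-flox;Cre and 18.6 ± 0.496 TPM in AVP-flox (SD, n = 4 each, log2 fold change -0.02, limma adjusted p = 0.917), and was named after its values were seen. Rrm1 (ENSMUSG00000030978), the large subunit, had 33.1, 28.8, 31.8 and 36.75 TPM in AVP-flox;Cre and 42.9, 48.2, 45.4 and 39.7 TPM in AVP-flox. Rrm2 (ENSMUSG00000020649), the S-phase small subunit, had 3.25, 2.91, 3.14 and 4.36 TPM in AVP-flox;Cre and 6.73, 8.02, 5.95 and 5.66 TPM in AVP-flox. For neither gene did the groups overlap.

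Rrm1 was 1.35-fold lower (log2 fold change -0.42, SE 0.10, limma adjusted p = 0.00942). Rrm2 was 1.93-fold lower (log2 fold change -0.78, SE 0.16, limma adjusted p = 0.00633). Each passed in all 22 alternatives. Rrm2 made 8.93 to 10.6% of the summed TPM of Rrm1 and Rrm2 in AVP-flox;Cre and 11.6 to 14.3% in AVP-flox.

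Pcna, the sliding clamp of the replication fork, had the highest mean of the replication genes over all 8 libraries, although Mcm7 was as high in AVP-flox alone, and did not pass the test. It had 46.6, 50.2, 54.15 and 43.1 TPM in AVP-flox;Cre and 49.45, 55.8, 41.4 and 45.0 TPM in AVP-flox. The groups covered nearly the same range (log2 fold change 0.02, 95% interval -0.22 to 0.26, limma adjusted p = 0.905). A processed pseudogene carries much of its sequence, and 31.8% of its windows are shared. Tyms, thymidylate synthase, lay between 16.3 and 24.2 TPM (log2 fold change 0.09, adjusted p = 0.653). The summed level of all 10 replication genes was 239 ± 3.47 TPM in AVP-flox;Cre and 287 ± 28.5 TPM in AVP-flox (SD, n = 4 each). AVP-flox 2 was the highest of all 8 libraries for 8 of the 10, and the sums were 235 to 243 TPM in AVP-flox;Cre, against 268 to 285 TPM in AVP-flox without it. The same library had the lowest sum of thick limb markers, 361 TPM, and the part of that in these values was not tested.

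**Figure D3:**
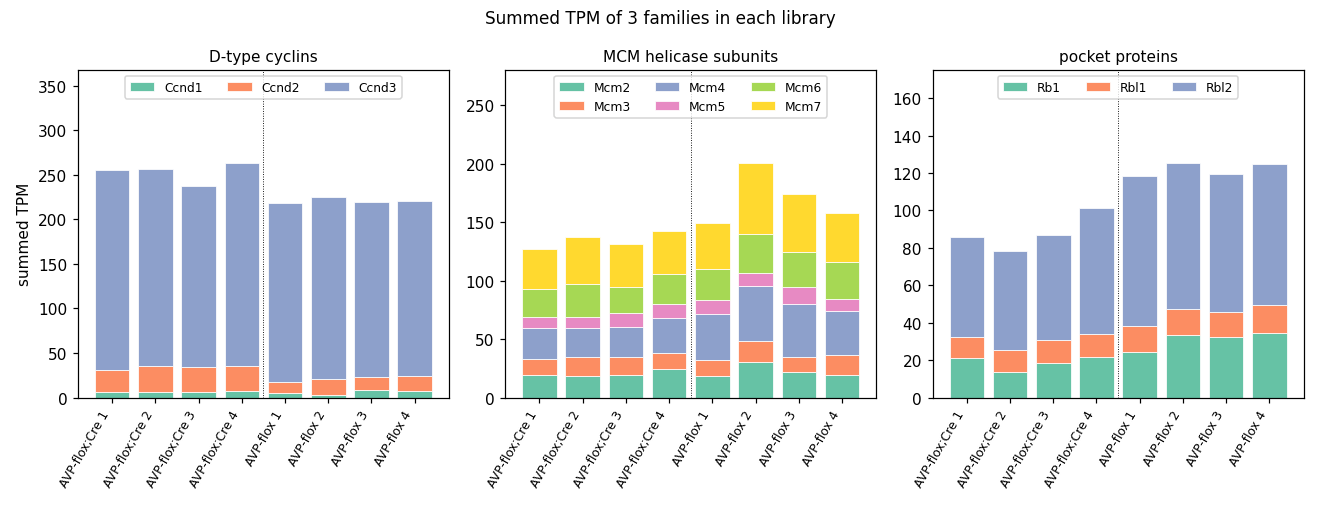
Summed TPM (y axis, starting at 0) of the D-type cyclins, the MCM helicase subunits and the pocket proteins in each of the 8 libraries (x axis), with 1 colour per gene. The pocket protein sums are 78.1 to 101 TPM in AVP-flox;Cre, against 119 to 125 TPM in AVP-flox, and Ccnd3 makes most of the D-cyclin sum in all 8 libraries.

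The 14 genes of G2 and mitosis were low in every library, at 0.03 to 8.79 TPM, and Cdk1 was the 1 gene of the 8 tested that passed. Cdk1 (ENSMUSG00000019942), the kinase that drives entry into mitosis, had 2.47, 2.76, 0.52 and 0.32 TPM in AVP-flox;Cre and 8.79, 6.05, 5.47 and 2.90 TPM in AVP-flox. The groups did not overlap, but their nearest libraries, at 2.76 and 2.90 TPM, were close. The means of 1.52 ± 1.28 TPM in AVP-flox;Cre and 5.80 ± 2.42 TPM in AVP-flox (SD, n = 4 each) made it 3.82-fold lower (log2 fold change -1.51, SE 0.40, limma adjusted p = 0.0194).

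The Cdk1 call depended on single libraries. It was lost without AVP-flox 1 (adjusted p = 0.0559), without AVP-flox;Cre 3 (0.0532), without AVP-flox;Cre 2 and 4 (0.0536) and with no filter (0.052). The higher libraries of each group are those with the male pattern. With sex as a covariate the log2 fold change was -1.79 (limma adjusted p = 0.00106), and over 21 alternatives the adjusted p ran between 0.00106 and 0.0559.

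Genes that mark dividing cells gave no common direction. Mki67, the antigen of cycling cells, was under the filter at 0.28, 0.24, 0.22 and 0.26 TPM in AVP-flox;Cre and 0.14, 0.03, 0.17 and 0.06 TPM in AVP-flox. Those values did not overlap, the exact permutation test gave p = 0.0286, and the fit with no filter gave 0.19 on the log2 scale (limma adjusted p = 0.503). Top2a, the topoisomerase of S phase and mitosis, had 2.59, 0.91, 1.41 and 4.34 TPM in AVP-flox;Cre and 0.53, 1.07, 1.49 and 1.65 TPM in AVP-flox. AVP-flox;Cre 4 and 1 were the highest of all 8, while replicate 2 of that group was below 3 AVP-flox libraries (log2 fold change 0.52, 95% interval -0.24 to 1.28, limma adjusted p = 0.294).

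Cdc20, an activator of the anaphase-promoting complex, stood at 2.82 to 3.03 TPM in AVP-flox;Cre, against 1.17 to 2.67 TPM in AVP-flox, without overlap but short of the threshold (log2 fold change 0.48, limma adjusted p = 0.1005). Bub1b, a spindle checkpoint kinase singled out after its values were seen, had 2.04, 1.89, 1.99 and 5.24 TPM in AVP-flox;Cre and 3.96, 3.93, 3.33 and 3.23 TPM in AVP-flox. The library at 5.24 TPM was above all AVP-flox libraries, and the other 3 of its group were below them. With that library, replicate 4, its log2 fold change was -0.36 (limma adjusted p = 0.334), and without it -0.63 (0.0257), with 0.0257 to 0.61 over 21 alternatives.

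Aurka and Aurkb, mitotic kinases, had log2 fold changes of -0.44 and 0.41 with adjusted p of 0.175 and 0.525. Aurkb averaged 0.985 TPM in AVP-flox and reached the filter only through AVP-flox;Cre, at 2.13 ± 2.14 TPM (SD, n = 4), where replicate 4 had 5.18 TPM. Aurka passed only without AVP-flox 4 (adjusted p = 0.0493, the lowest of 21 alternatives, of which the highest was 0.422). Ccna2, the S-phase and mitotic cyclin, and Birc5, which encodes survivin, were at 0.40 and 0.28 with adjusted p of 0.214 and 0.561. Ccnb1, Ccnb2, Bub1, Plk1 and Ube2c were not tested and lay between 0.04 and 2.30 TPM. In the fit with no filter their log2 fold changes were 0.72 for Ccnb2, 0.37 for Ube2c, 0.23 for Ccnb1, -0.09 for Plk1 and -0.27 for Bub1. The limma adjusted p of these ran between 0.289 and 0.914. AVP-flox;Cre 4 was the highest of its group for 6 of the 14 genes and the highest of all 8 libraries for 5 of them. It also had the most genes of at least 1 TPM, and the part of that in these values was not tested.

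Sequence shared with other genes was small for most genes past the threshold. Of the 50-base windows of their annotated transcripts, 11.3% of Rbl2, 6.5% of Rrm2, 5.2% of Ccnd2, 4.6% of Rrm1, 1.7% of Cdk6, 1.6% of Mcm4, 1.3% of Rb1, 0.1% of Cdk2 and 0% of Cdk1 also occur elsewhere. The GC content of the transcript start ran between 51% for Cdk1 and 78.0% for Rb1 among these genes, and all 9 stayed past the threshold after the GC correction.

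**Figure D4:**
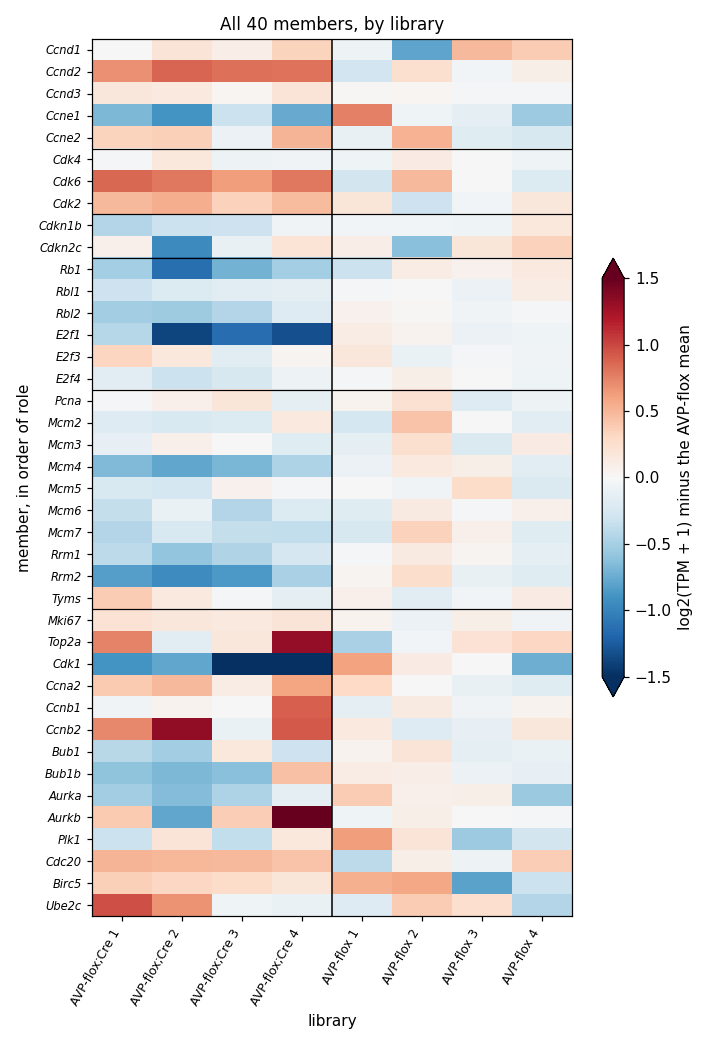
Log2(TPM + 1) minus the AVP-flox mean for all 40 genes (rows, in order of role) in each AVP-flox;Cre and AVP-flox library (columns), from lower in blue to higher in red, with the scale ended at -1.5 and 1.5. In the left 4 columns Ccnd2, Cdk6 and Cdk2 are red, and Rb1, Rbl2, Mcm4, Rrm1, Rrm2 and Cdk1 are blue. Of the other G2 and mitosis genes, some keep 1 colour in those columns, and others, such as Top2a, Bub1b and Aurkb, change colour between them.

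Related lists of other genes of the pathway, 4 in number and 123 genes in all, were read in the same fit. Of their 102 tested genes, 13 rose and 11 fell, 23.5% beside 27.3% of all genes tested. The 21 tested other regulators of cyclin-dependent kinases had 2 higher and 2 lower, with a median log2 fold change of -0.01. The largest of these was Cdkn1c, which encodes the kinase inhibitor Kip2 and is imprinted. It had 253, 191, 253 and 219.96 TPM in AVP-flox;Cre and 63.0, 60.2, 71.6 and 65.3 TPM in AVP-flox. The groups were far apart, a 3.52-fold difference (log2 fold change 1.79, SE 0.10, limma adjusted p = 7.55e-06). Cdkn2b, an inhibitor of Cdk4 and Cdk6, fell to 93.8 ± 8.19 TPM in AVP-flox;Cre, against 162 ± 31.5 TPM in AVP-flox (SD, n = 4 each), with a limma adjusted p of 0.00174. Of the small kinase-binding proteins, Cks1b rose (log2 fold change 0.48, adjusted p = 0.0227) and Cks2 fell (-0.61, adjusted p = 0.0131).

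Of the 16 tested other E2F, DREAM and MYB-MuvB genes, 4 rose and 1 fell, with a median of -0.05. Mxd4, an antagonist of Myc, had a log2 fold change of 0.63 (limma adjusted p = 0.00142) and E2f5, a repressor E2F, one of 0.50 (adjusted p = 0.00402). Rbbp7, a histone-binding protein, stood at 0.28 (adjusted p = 0.0107), and Lin37, a subunit of the DREAM core, was the 1 that fell, at -0.28 (adjusted p = 0.0188).

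Of the 42 other DNA replication genes, all tested, 6 rose and 6 fell, 28.6% with a median of -0.03. Prim1, the primase catalytic subunit, fell to 17.0 ± 3.24 TPM in AVP-flox;Cre, against 31.0 ± 1.185 TPM in AVP-flox (SD, n = 4 each), a log2 fold change of -0.84 (limma adjusted p = 0.000975). Gmnn, which encodes geminin, the inhibitor of origin licensing, fell to 24.6 ± 3.46 TPM in AVP-flox;Cre, against 41.6 ± 4.52 TPM in AVP-flox (-0.73, adjusted p = 0.00154). Rfc4, a clamp loader subunit, fell as well (-0.73, adjusted p = 0.00317). Chaf1b, a subunit of chromatin assembly factor 1, rose to 11.0 ± 0.668 TPM in AVP-flox;Cre, against 6.67 ± 0.627 TPM in AVP-flox (0.64, adjusted p = 0.00262).

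Of 40 other mitosis genes, 23 were tested, 1 rose and 2 fell, 13% with a median of -0.15. Stmn1, the microtubule-destabilising stathmin, fell to 10.3 ± 1.20 TPM in AVP-flox;Cre, against 19.4 ± 1.95 TPM in AVP-flox (SD, n = 4 each), with a limma adjusted p of 0.000658. Spc25, of the kinetochore NDC80 complex, had a log2 fold change of -1.14 (adjusted p = 0.00638), and Cenpa, the centromeric histone, one of 0.88 (adjusted p = 0.0187).

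Markers of other cell types moved between the groups too. The share called among all genes tested was 27.3%. Of 9 tested fibroblast and pericyte markers 4 rose and 0 fell, of 10 endothelial markers 5 rose and 2 fell, and of 9 intercalated cell markers 5 rose and 0 fell. None of the 9 tested proximal tubule markers passed, and of 6 tested thick limb and distal tubule markers 1 rose, Cldn16, a claudin of the thick limb. The other 5 did not pass, and each had a negative log2 fold change. These were -1.39 for Slc12a1 (limma adjusted p = 0.0876), -1.33 for Kcnj1 (0.115), -0.75 for Umod (0.343), -0.16 for Slc12a3 (0.798) and -0.07 for Calb1 (0.927). The thick limb sum was 558 to 812 TPM in AVP-flox;Cre, against 361 TPM in AVP-flox 2 and 1898 to 2277 TPM in AVP-flox 1, 3 and 4. Of 9 tested leukocyte markers 1 rose, Csf1r, the macrophage growth factor receptor, by 1.10 on the log2 scale, and their sum lay between 296 and 522 TPM in AVP-flox;Cre, against 198 to 469 TPM in AVP-flox. No marker of these lists was at 0 in all 8 libraries. The part of these cells in the cell cycle values was not tested.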

How the data were processed

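RNA-seq values of 8 libraries were analysed, 4 AVP-flox;Cre and 4 AVP-flox. Per the labels' protocols, cDNA was made with the SMART-Seq HT kit and libraries with Nextera XT, which does not mark strand, and reads were paired-end. Per the submitters' processing notes the tools were STAR and RSEM (no versions), while build and annotation were not given in the sources used here. The authors deposited TPM per gene, 78298 identifiers, with column sums equal within 2.04 of the nominal total. TPM keeps no depth, and amplified reads limit the precision of low genes in a way that cannot be computed from it. Columns named KO were read as AVP-flox;Cre and those named WT as AVP-flox. Of the identifiers, 21883 had no symbol, and 312 symbols with several identifiers were summed.

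Genes averaging 1 TPM or more were tested on log2(TPM + 1) with limma 3.58.1 (R 4.3.3, statmod 1.5.0), with a mean-variance trend, two-sided, and Benjamini-Hochberg adjustment over 19043 genes at a threshold of 0.05. A log2 fold change on this scale understates the change of low genes, and folds are ratios of mean TPM. For single genes an exact permutation test over the 70 splits compared mean TPM. The fit was tested on simulated data in 5 runs, where it recovered 84.8% of changes of 1 and 97.0% of changes of 2 on the log2 scale. It made 34 false calls over all runs. Only genes well above the filter were changed, so smaller changes and changes in low genes were not covered. GC content is that of the first 300 nt of the longest GENCODE M21 transcript, which may not be the authors' release, and was found for 16641 of the genes tested. Sequence sharing was read from windows of those transcripts. Motifs were searched with Python 3.11.15 (pandas 2.3.3).

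The members and lists were chosen with earlier results of these data known. Values in every library are given for members past the threshold, for Mki67, Top2a, Ccnd1, Cdkn1b, Pcna and Rb1, and for the most abundant member of each role. Of each related list, up to 4 genes past the threshold with the smallest adjusted p are named. Other values by library, and related genes outside this rule, were chosen after values were seen. The alternatives were other scalings, pseudocounts, filters and limma settings, sex as a covariate, a GC correction, a replicate block, each library left out, and, chosen after seeing the data, AVP-flox;Cre 2 and 4 left out together.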

Additional observations from a re-analysis of the deposited data

Results flagged for a closer look

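In 5 of 80 groups of 4 libraries, 1 library stood apart, its gap to the nearest other library making most of the group's whole range (over Dixon's 95% critical value), and chance gives about 1 in 20. AVP-flox;Cre 4 was high for Bub1b (gap 0.955 of the range), Ccnb1 (0.920) and Mcm2 (0.897). In AVP-flox, replicate 2 was high for Ccne2 (0.867) and replicate 4 for Cdkn1b (0.882). Ccnb1 had 1.59 TPM in AVP-flox;Cre 4, against 0.34 to 0.44 TPM in the other 3 libraries of that group, and shares 42.1% of its windows with other sequences.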

How the results depend on the processing

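Of the 9 members past the threshold, 189 of 197 values over 22 alternatives kept direction and call, 8 lost the call and 0 turned direction. Without AVP-flox;Cre 2 and 4, 1 member rose (Ccnd2) in place of 3. With 1 library left out, 2 to 3 members rose and 6 to 9 fell. Rescaling without mitochondrial genes and the 10 most abundant ones gave 9 members lower, and sample weights gave 8, with 3 higher in each. Of the related genes, 13 higher became 7 with no filter, 6 without AVP-flox;Cre 2 and 4 and 8 to 12 with 1 library left out. Their 11 lower became 18 after rescaling that left out both mitochondrial genes and the 10 most abundant ones, 17 with the GC correction and 11 to 16 with 1 library left out. The titles number the replicates without stating a pairing. Deviations of same-numbered libraries correlated at 0.001 to 0.095, but low correlations over all tested genes do not exclude a pairing. In the fit with a replicate block, 3 members rose and 7 fell, Mcm7 among them (adjusted p = 0.0418), and 10 related genes rose and 12 fell. Among members not past the threshold, 18 of 517 values turned direction. Cdk4 was at -0.017 with quantile scaling, -0.025 with rescaling, -0.022 with sample weights, -0.0051 with sex and -0.044 without AVP-flox;Cre 2 and 4, and Pcna was at -0.0072 with rescaling. With 1 library left out, the log2 fold change ran between -0.045 and 0.045 for Cdk4, -0.044 and 0.097 for Pcna, -0.11 and 0.32 for Ccnd1, -0.40 and 0.061 for Cdkn2c, -0.21 and 0.019 for Mcm2, -0.12 and 0.027 for Mcm3, -0.0083 and 0.17 for Tyms, and -0.0014 and 0.80 for Aurkb. The causes were not tested. The unknown depth and levels under 1 TPM limit what can be said of the mitotic genes.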

Other observations

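The following regulators outside the 40 genes were picked after their values were seen, and Cdkn1a, Myc and Mybl2 did not pass the test. Cdkn1a, which encodes the kinase inhibitor induced by p53, had 85.5 ± 16.3 TPM in AVP-flox;Cre and 126 ± 31.0 TPM in AVP-flox (SD, n = 4 each, log2 fold change -0.55, limma adjusted p = 0.0542). Myc had 6.34 to 23.1 TPM in AVP-flox;Cre, against 11.0 to 31.8 TPM in AVP-flox, with broad overlap (-0.62, adjusted p = 0.29). Mybl2, a factor that acts with MuvB on mitotic genes, was at 1.09 to 4.86 TPM in AVP-flox;Cre, against 0.81 to 2.58 TPM in AVP-flox (0.54, adjusted p = 0.286). Cdt1, the licensing factor that geminin binds, fell by 0.74 on the log2 scale (limma adjusted p = 0.00945). It had 2.76 to 4.65 TPM in AVP-flox;Cre, against 5.74 to 6.93 TPM in AVP-flox. Fen1, the flap nuclease of the lagging strand, fell by 0.60 (adjusted p = 0.00395). Both belong to the other DNA replication genes, of which 6 rose and 6 fell. Besides Chaf1b, those that rose were Rpa3 (0.53, limma adjusted p = 0.00711), Rpa1 (0.26, 0.0213), Gins1 (0.66, 0.0337), Uhrf1 (0.91, 0.049) and Pola2 (0.26, 0.0493).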
